A study of Mus musculus with 20 samples.

Results

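BiP, the HSP70 chaperone of the endoplasmic reticulum encoded by Hspa5, was examined with 9 genes of its partners in fasted mouse liver. The 10 genes, Hspa5, Hsp90b1, Hyou1, Sil1, Dnajb9, Dnajb11, Dnajc3, Dnajc10, Sdf2l1 and Manf, were chosen by name, and every probe set (a group of short array probes read as 1 value) annotated with one of these symbols and no other was taken. That gave 21 probe sets of the 45037 that are not controls, for 10 of the 18193 genes named on the array. In mouse liver on a high-fat diet (HFD), 12 of the 21 probe sets were called higher than on a low-fat diet (LFD), at an adjusted p under 0.05. They came from 8 of the 10 genes, and none of the 21 was called lower. Of all probe sets, 1.11% were called higher and 1.2% lower.

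The HFD mice were 10 male C57BL/6J animals (an inbred laboratory strain) on a diet with 45% of energy from fat for 4 weeks. They were compared with 10 male C57BL/6J animals fed LFD, with 10% of energy from fat, for the same 4 weeks. All had been bought at 3 weeks of age and acclimated on LFD, were fasted for 16 h before liver was taken, and are labelled as 8 weeks old. Each liver was measured on its own Affymetrix array after 3′-end labelling, and groups given a maple syrup extract, which the design text mentions, are not analysed here.

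The deposited value of a probe set is a score that runs like a log2 intensity, from 5.18 to 15, but its differences between arrays are strongly compressed: the median SD of a probe set over the 20 arrays was 1.17e-05. The compression was uneven, with SDs within diets from 1.58e-05 to 0.019 among the 21 probe sets. A difference in score is therefore no fold change. Sizes are given as standardised differences, the HFD mean minus the LFD mean divided by the SD within diets, with a 95% interval, and as the share of the 100 pairs of an HFD and an LFD mouse in which the HFD mouse was higher. Both assume that a score rises with its transcript, which was not tested. Array medians ran from 6.56705 to 6.56719 in HFD and from 6.56702 to 6.56720 in LFD. They tended to be higher in HFD, with a median of 6.56717 and 8 of 10 arrays above the median of all 20, against 6.56705 and 2 of 10 in LFD, a gap that is large beside the SD of most probe sets. Centring arrays on these medians moved the median standardised difference of all probe sets to -1.29, and 0 pairs of arrays were identical. Poly-A spike-in controls averaged -0.38 SD in HFD and 0.38 SD in LFD, and their part in the results was not tested beyond their use as a covariate. Hepatocyte markers were high throughout, with 6 of 8 measured, at mean scores from 12.184 for Hnf4a to 14.819 for Alb, and none of the 6 passed by limma over genes. Their standardised differences ran from -3.12 for Ttr (limma adjusted p = 0.224) to 1.35 for Apoa1 (limma adjusted p = 0.719). A standardised difference uses the probe set's own SD, whereas limma also draws on the SDs of all others. Ttr thus had no call at a size beyond that of Sil1 (1.76), which passed. The lack of calls does not show that these markers were unchanged. In bulk liver, more cells of a type and more RNA per cell cannot be told apart.

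BiP binds unfolded stretches of proteins that enter the endoplasmic reticulum and releases them in a cycle driven by ATP. J domain proteins deliver clients and speed ATP hydrolysis, and nucleotide exchange factors reset the cycle. BiP also holds the stress sensors of the unfolded protein response inactive, and in hepatocytes, which secrete most plasma proteins, the demand on this system changes with feeding. Many of its genes carry an endoplasmic reticulum stress element (ERSE) in the promoter, a paired site for the factor NF-Y and for ATF6 or XBP1.

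The promoters of the genes with such an element are shown as a description. The 4 genes that hold one were among the 8 with a probe set that rose. So was Sdf2l1, whose window held none. A link between the element and the rise was not tested. RefSeq windows (GRCm38.p6), from 250 bases before to 50 bases after the start of transcription, were present for 7 of the 10 genes. Hyou1, Manf and Sil1 had no entry. Each window was searched on both strands for ERSE (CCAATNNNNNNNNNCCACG), for the shorter ERSE-II (ATTGG, 1 base of any kind, then CCACG) and for the core of the unfolded protein response element (TGACGTGG). No match overlapped another in the 7 windows. ERSE was found in Hspa5, Hsp90b1 and Dnajc3 and in 0.119% of all 32851 promoter windows. ERSE-II was found in Dnajb11 and in 0.0365% of all windows. The third motif was in none of the 7 and in 0.676% of all windows. Capitals mark the motifs in the lines that follow, which give the bases before the start, in the direction of the gene.
Hspa5 (chr2:34771840-34772089, plus strand): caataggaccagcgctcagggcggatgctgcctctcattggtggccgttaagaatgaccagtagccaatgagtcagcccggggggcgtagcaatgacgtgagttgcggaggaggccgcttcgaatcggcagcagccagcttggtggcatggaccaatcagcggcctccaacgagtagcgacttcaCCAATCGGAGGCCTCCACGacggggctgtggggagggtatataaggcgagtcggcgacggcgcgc
Hsp90b1 (chr10:86705445-86705694, minus strand): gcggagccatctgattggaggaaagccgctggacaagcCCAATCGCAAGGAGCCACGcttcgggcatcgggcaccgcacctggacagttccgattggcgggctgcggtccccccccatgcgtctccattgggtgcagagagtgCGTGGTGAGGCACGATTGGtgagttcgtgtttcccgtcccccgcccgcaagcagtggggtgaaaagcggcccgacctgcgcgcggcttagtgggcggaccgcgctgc
Dnajc3 (chr14:118937682-118937931, plus strand): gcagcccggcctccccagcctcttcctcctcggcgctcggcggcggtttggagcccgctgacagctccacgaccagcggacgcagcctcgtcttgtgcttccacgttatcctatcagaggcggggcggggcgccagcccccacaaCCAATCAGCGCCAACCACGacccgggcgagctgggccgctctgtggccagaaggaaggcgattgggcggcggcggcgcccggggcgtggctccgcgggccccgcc

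The Hspa5 element ended 47 bases before the start of transcription, and that of Dnajc3 ended 87 bases before it. Hsp90b1 held 2, ending 194 and 89 bases before the start, the second on the opposite strand of the gene. In Dnajb11 the ERSE-II lay just past the start, at bases 8 to 18, and is shown with 30 bases around it.
Dnajb11 (chr16:22857843-22857872, plus strand): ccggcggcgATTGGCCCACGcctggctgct

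A match to these letters is a description of the window and says nothing of binding in these livers. Dnajb9, Dnajc10 and Sdf2l1 held none of the 3 motifs in their windows.

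Taking the comparison as a whole, all 21 probe sets had a higher mean in HFD than in LFD mice. By limma, 12 of them passed an adjusted p of 0.05, where 1.11% of all probe sets were called higher (501 of 45037) and 2.32% in either direction. Called lower were 0 of the 21 by limma and 0 by an exact rank sum test, against 1.2% of all probe sets by limma, and since every mean was higher, 0 were lower at an unadjusted p under 0.05 too. At that unadjusted level 16 were higher, and the share of all probe sets at that level is not given here. The median standardised difference of the 21 was 1.87, against 0.04 for all probe sets. Of all probe sets, 52.2% were higher in HFD mice. The shared direction depended on scaling. After quantile normalisation 17 of 20 tested probe sets were higher, with 10 past the threshold. Of all 42361 probe sets tested in that setting, 380 were called higher and 3784 lower. With the median of each array subtracted, 14 of the 21 were higher, with 12 past the threshold. In that setting 396 of all 45037 probe sets were called higher and 38220 lower. None of the 21 separated the diets completely, and 0.0666% of all probe sets had every HFD mouse above every LFD mouse. With 1 probe set per gene, 9 of the 10 genes passed in the fit over 18193 genes, where 1.71% of genes were called higher and 3.49% in either direction. Of these 9, Dnajb9 lay at the threshold (limma adjusted p = 0.0495). With the poly-A spike-in score as a covariate 10 of the 21 probe sets passed.

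**Figure D1:**
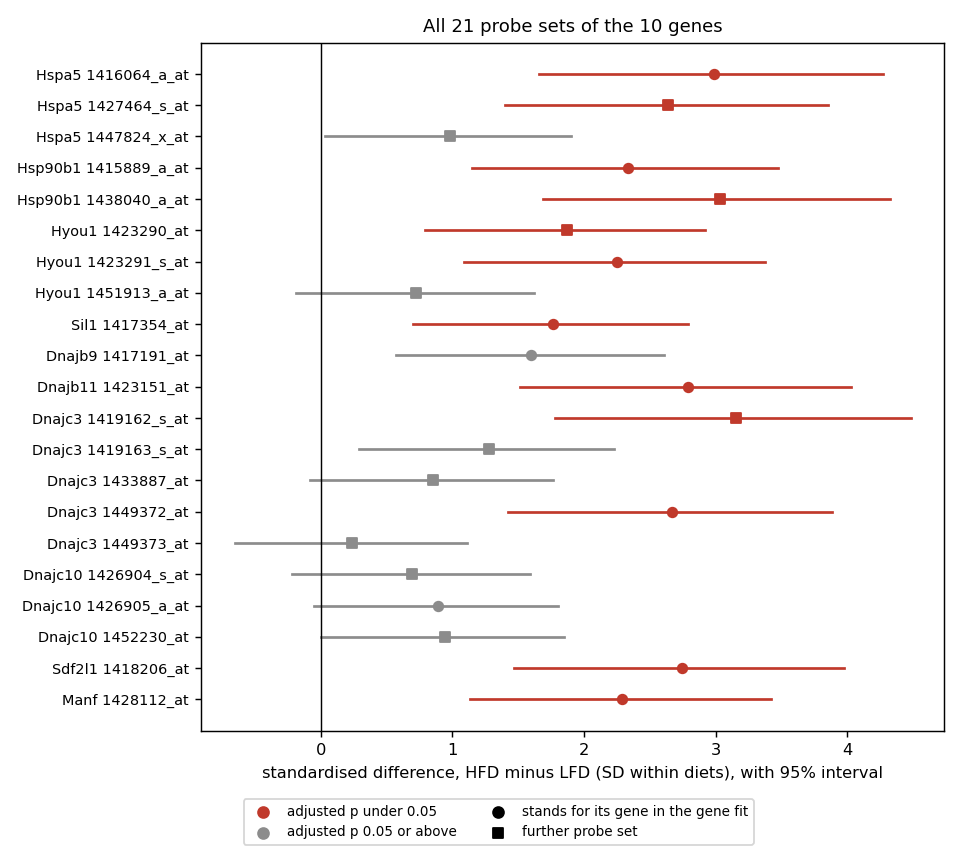
Standardised difference between HFD and LFD mice (x axis, in SD within diets, HFD minus LFD) for each of the 21 probe sets, with 95% intervals (lines). Red marks the 12 with a limma adjusted p under 0.05, grey the other 9, and circles the probe set that stands for its gene; all 21 estimates lie right of 0, from 0.24 for a Dnajc3 probe set to 3.15 for another.

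Hspa5, the HSP70 itself, rose. Its brightest probe set (1416064_a_at) ran from a lowest score of 12.69855 over a median of 12.70088 to a highest of 12.70228 in HFD mice, against 12.69642, 12.69785 and 12.69862 in LFD mice. Of the HFD mice, 9 lay above every LFD mouse, and HFD replicate 2 lay just inside the LFD range. The standardised difference was 2.99 (95% interval 1.66 to 4.27, limma adjusted p = 0.00127), and 99% of pairs had the HFD mouse higher. A second probe set (1427464_s_at) stood at 2.64 (1.40 to 3.85, limma adjusted p = 0.0032). The third (1447824_x_at) carries a suffix that marks probes shared with other transcripts, stood at 0.98 (0.03 to 1.90) and did not pass (limma adjusted p = 0.291).

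Hsp90b1, which encodes GRP94, the HSP90 of the endoplasmic reticulum, rose on both of its probe sets. The one used for the gene (1415889_a_at) had a lowest, median and highest score of 11.56850, 11.56947 and 11.57034 in HFD mice, against 11.56678, 11.56794 and 11.56928 in LFD mice. The diets overlapped, with 7 HFD mice above every LFD mouse, and LFD replicate 7 was the highest of its diet. The standardised difference was 2.33 (95% interval 1.15 to 3.47, limma adjusted p = 0.00731). On the other probe set (1438040_a_at) HFD mice had 10.3498, 10.3589 and 10.3643, against 10.3416, 10.3475 and 10.3513 in LFD mice. There 9 HFD mice lay above every LFD mouse, and the standardised difference was 3.03 (1.69 to 4.32, limma adjusted p = 0.00115).

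The nucleotide exchange factors of BiP are Hyou1, an HSP110-type chaperone also called GRP170, and Sil1. Hyou1 rose on 2 of 3 probe sets. On 1423291_s_at its scores were 8.9612, 8.9638 and 8.9666 (lowest, median and highest) in HFD mice, against 8.9593, 8.9610 and 8.9625 in LFD mice. All HFD mice but replicate 2 lay above every LFD mouse, and the standardised difference was 2.25 (1.09 to 3.37, limma adjusted p = 0.0101). The probe set 1423290_at stood at 1.87 (0.79 to 2.92, limma adjusted p = 0.028). The probe set 1451913_a_at, whose scores lay below the median score of all probe sets (6.57), stood at 0.72 (-0.19 to 1.62, limma adjusted p = 0.468). Of the Hyou1 probe sets that passed, only 1423290_at has no suffix for shared probes. The call of 1423290_at was lost without HFD replicate 9, LFD replicate 6 or LFD replicate 9, with adjusted p up to 0.0505, and with the poly-A covariate (0.0861).

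Sil1 was higher by a standardised difference of 1.76 (0.70 to 2.79, limma adjusted p = 0.0402), a direction that turned after quantile normalisation (-0.91) and after centring arrays on their medians (-0.60). Its scores were 8.656459, 8.656487 and 8.656533 in HFD mice, against 8.656424, 8.656453 and 8.656492 in LFD mice. Only 4 HFD mice lay above every LFD mouse, though 91% of pairs had the HFD mouse higher. Leaving out 1 array at a time, the call held in 7 of 20 fits, with adjusted p up to 0.0706 (without LFD replicate 8). It was also lost with the poly-A covariate (adjusted p = 0.0937) and by the exact rank sum test (adjusted p = 0.0517). The SD of Sil1 was at the 70.9th percentile of all probe sets, the lowest of the 12 probe sets of these genes that passed.

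**Figure D2:**
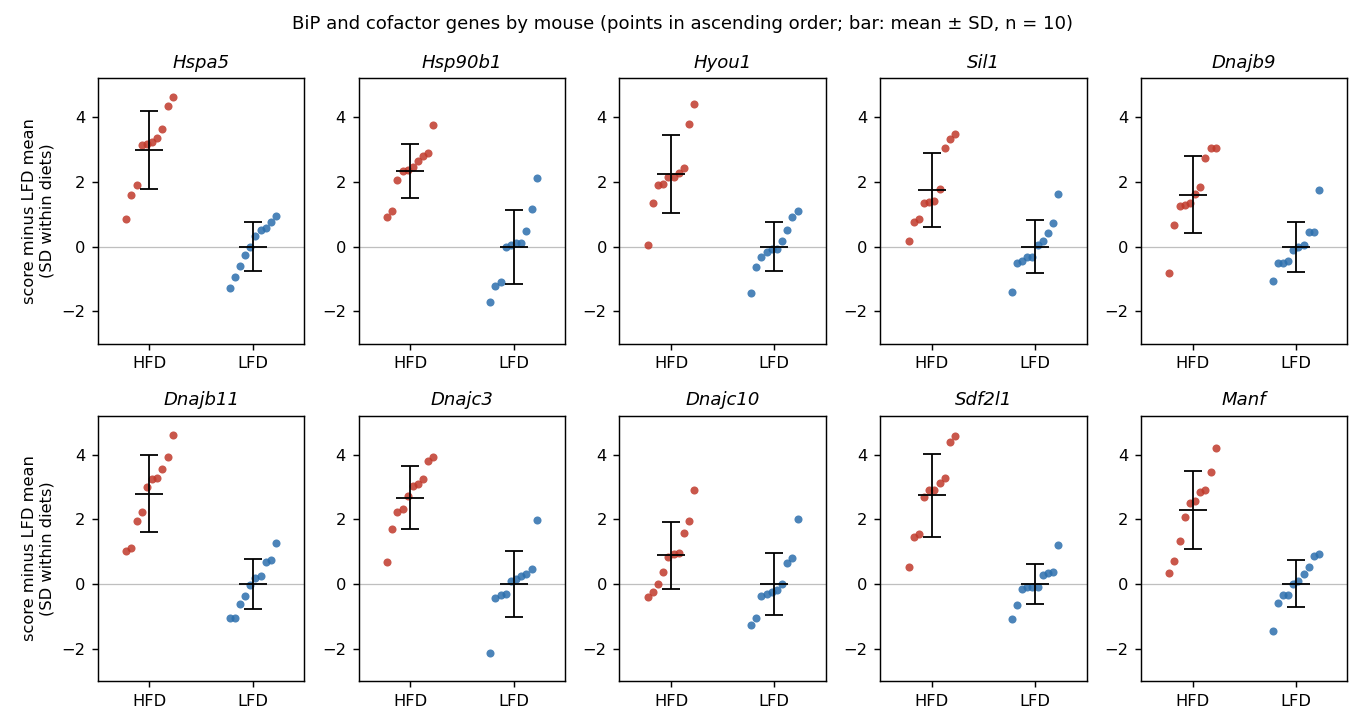
Score of each mouse minus the LFD mean, in SD within diets (y axis), for 1 probe set per gene, with HFD mice (red) left of LFD mice (blue) and points sorted within a diet. Black bars are the mean ± SD of 10 mice; for Hspa5, Hyou1 and Sdf2l1, 9 of the 10 HFD mice lie above every LFD mouse, whereas for Dnajc10 only 1 does.

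Of the 4 J domain proteins, 2 rose in the fit over probe sets, Dnajb11 and Dnajc3, whereas Dnajb9 passed only in the fit over genes. Dnajb11, known as ERdj3, binds unfolded clients and passes them to BiP. Its scores were 9.76732, 9.76892 and 9.77006 in HFD mice, against 9.76573, 9.76659 and 9.76749 in LFD mice. Of the HFD mice 8 lay above every LFD mouse, and the standardised difference was 2.79 (1.51 to 4.03, limma adjusted p = 0.0022).

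Dnajc3, known as ERdj6 or p58IPK, is a client-binding cochaperone of BiP. Its 5 probe sets disagreed in size. The brightest (1449372_at) had 10.93543, 10.93591 and 10.93615 in HFD mice, against 10.93482, 10.93531 and 10.93572 in LFD mice. It stood at 2.67 (1.42 to 3.88, limma adjusted p = 0.00297), with 8 HFD mice above every LFD mouse. The probe set 1419162_s_at stood at 3.15 (1.78 to 4.48, limma adjusted p = 0.00073), which was the largest of the 21, but at -0.24 after quantile normalisation. The other 3 did not pass: 1419163_s_at stood at 1.28 (adjusted p = 0.144), 1433887_at at 0.85 (adjusted p = 0.375) and 1449373_at at 0.24 (adjusted p = 0.855), all by limma. Of these, 1449373_at had the HFD mouse higher in 53% of pairs. The stretches of transcript that the 5 probe sets target were not examined.

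Dnajb9, known as ERdj4, helps hand misfolded proteins to degradation and keeps BiP on the stress sensor IRE1. Its scores were 10.46404, 10.46512 and 10.46586 in HFD mice, against 10.46392, 10.46439 and 10.46525 in LFD mice, and 4 HFD mice lay above every LFD mouse. Its single probe set stood at 1.60 (0.57 to 2.61) and lay at the threshold: the limma adjusted p was 0.0613 over all probe sets and 0.0495 over genes. The call over genes held in 3 of 20 fits without 1 array and was lost in 6 of 13 alternatives. The lowest HFD mouse was replicate 7, at 0.81 SD below the LFD mean, and without it the adjusted p over all probe sets was 0.013. Without LFD replicate 1, the highest of its diet, that p was 0.0299, and without LFD replicate 2, the lowest, it was 0.103.

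Dnajc10, known as ERdj5, is a reductase that opens disulfide bonds of proteins bound for degradation. None of its 3 probe sets passed by limma, and 1 had an unadjusted p under 0.05. By the rank sum test also none passed. The one used for the gene (1426905_a_at) had 8.472577, 8.472632 and 8.472720 in HFD mice, against 8.472539, 8.472584 and 8.472681 in LFD mice, and the ranges overlapped over most of their length. It stood at 0.89 (-0.05 to 1.80, limma adjusted p = 0.351). The others stood at 0.94 and 0.69, and all 3 turned negative after centring arrays on their medians. A p above the threshold does not show that Dnajc10 was unchanged.

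Among the remaining partners, Sdf2l1 keeps BiP clients from aggregating in a complex with Dnajb11. Its scores were 8.159, 8.204 and 8.236 in HFD mice, against 8.129, 8.148 and 8.172 in LFD mice. The standardised difference was 2.74 (1.47 to 3.97, limma adjusted p = 0.00249), and 9 HFD mice lay above every LFD mouse. Its SD was at the 99.8th percentile of all probe sets.

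Manf is a small protein that is released from stressed cells and that binds BiP and slows its exchange of nucleotide. Its scores were 10.1297, 10.1429 and 10.1530 in HFD mice, against 10.1190, 10.1280 and 10.1333 in LFD mice. It stood at 2.29 (1.13 to 3.42, limma adjusted p = 0.00839), and 8 HFD mice lay above every LFD mouse.

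The same HFD mice tended to stand high or low across the 10 genes. Averaged over the 10 genes, each in SD from its LFD mean, HFD mice ran from 0.68 over a median of 2.26 to 3.76, against -0.70, -0.09 and 0.89 in LFD mice. These averages describe genes that were chosen together and carry no test. HFD replicate 3 stood above every LFD mouse for all 10 genes, and HFD replicates 5 and 6 each for 9 of them. HFD replicate 2 did so for 0 genes and was the lowest HFD mouse on 12 of the 21 probe sets. On every probe set the highest HFD mouse was replicate 3 (11 probe sets) or replicate 5 (10). Without HFD replicate 2 the number of probe sets past the threshold was 12, as with it, and without replicate 3 or without replicate 5 it was 11. The typical deviation of the array of HFD replicate 2 from its diet's means (a median of 0.70 SD over all probe sets) lay within the 0.52 to 0.80 SD of the other arrays. The SD was larger among HFD than among LFD mice for 16 of the 21 probe sets, against 49.4% of all probe sets; for Sdf2l1 it was 2.06 times and for Hspa5 1.59 times as large. That difference in spread was not tested.

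**Figure D3:**
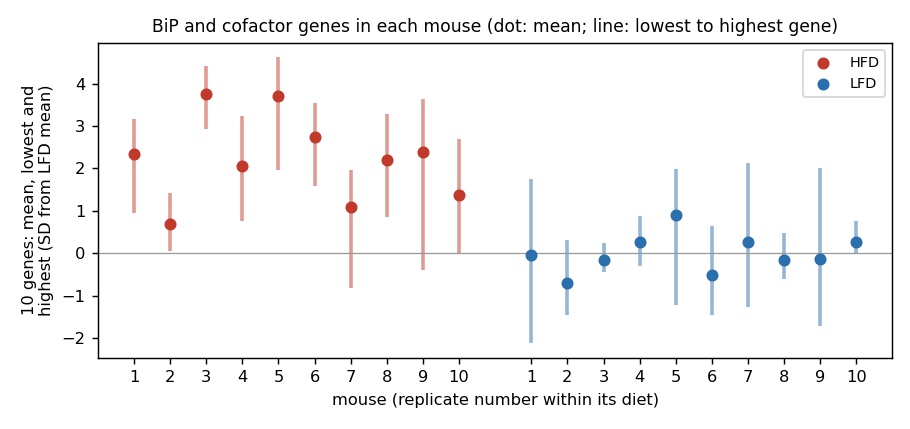
The 10 genes in each mouse, in SD from the LFD mean (y axis), with the mean over genes as a dot and a line from the lowest to the highest gene, for HFD replicates 1 to 10 (red, left) and LFD replicates 1 to 10 (blue, right). HFD replicates 3 and 5 stand highest, at means of 3.76 and 3.70, and HFD replicate 2 lowest of its diet, at 0.68, below the highest LFD mean of 0.89.

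Within diets, the level of Hspa5 was set against each of the other 9 genes, which gave 18 relations of 10 mice each, with permutation p-values from 100000 resamples adjusted over the 18. Among HFD mice 7 of 9 Pearson correlations passed, as did 7 of 9 Spearman correlations, and among LFD mice 2 and 2 passed. Manf had r = 0.98 (permutation p = 1e-05, the smallest these resamples can give, adjusted 0.00018) and rho = 0.96 (permutation p = 2e-05, adjusted 0.00018) in HFD mice. In LFD mice it had r = 0.94 (permutation p = 7e-05, adjusted 0.000315) and rho = 0.93 (permutation p = 0.00034, adjusted 0.00153). Without the 2 mice farthest from the Hspa5 median, r was 0.96 in HFD and 0.87 in LFD mice. Sdf2l1 had r = 0.99 (permutation p = 4e-05, adjusted 0.000315) and rho = 0.94 (permutation p = 2e-04, adjusted 0.0012) in HFD mice. In LFD mice it had r = 0.83 (permutation p = 0.0016, adjusted 0.0036) and rho = 0.78 (permutation p = 0.0106, adjusted 0.0239). Without those 2 mice its r was 0.98 in HFD and 0.83 in LFD mice.

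For Hsp90b1, r was 0.93 (permutation p = 7e-05, adjusted 0.000315) and rho 0.99 (permutation p = 1e-05, adjusted 0.00018) in HFD mice. Among LFD mice r was 0.37 (permutation p = 0.293, adjusted 0.311) and rho 0.30 (permutation p = 0.405, adjusted 0.405), so the relation was not detected there. Without the 2 farthest mice its r was 0.81 in HFD and 0.23 in LFD mice. Dnajc10 had r = 0.68 (permutation p = 0.0303, adjusted 0.0546) and rho = 0.58 (permutation p = 0.0883, adjusted 0.159) in HFD mice, neither past the threshold after adjustment. In LFD mice it had r = -0.41 (permutation p = 0.244, adjusted 0.274) and rho = -0.30 (permutation p = 0.405, adjusted 0.405). Without those 2 mice its r was 0.68 in HFD and -0.23 in LFD mice. Whether any of these relations differed between the diets was not tested.

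**Figure D4:**
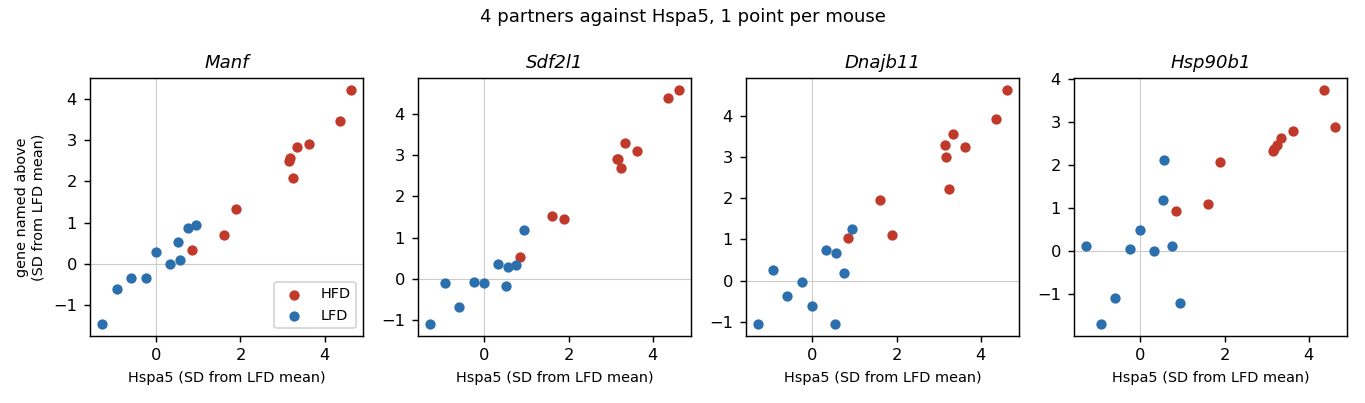
Manf, Sdf2l1, Dnajb11 and Hsp90b1 (y axes) against Hspa5 (x axis), all in SD from the LFD mean, with 1 point per mouse, HFD red and LFD blue. The HFD points rise along a line in each panel (r from 0.93 to 0.99), and the LFD points do so for Manf (r = 0.94) and scatter for Hsp90b1 (r = 0.37).

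Over all 20 mice, with each diet's mean subtracted, the genes outside the 10 whose deviations were most like those of Hspa5 were Creld2 (r = 0.97), Atp2a2 (0.90), Syvn1 (0.89), Edem3 (0.88), Fndc3a (0.88) and Gfpt1 (0.87). They were selected as the highest of 18192 genes after the other members and predicted gene models were left out, so these values have no p. Manf was the gene most like Hspa5 of all 18192, Sdf2l1 ranked 3, Dnajb11 14, Hyou1 23 and Dnajb9 63. Lower were Hsp90b1 at 283 (r = 0.62), Sil1 at 340 (0.60), Dnajc3 at 409 (0.58) and Dnajc10 at 3229 (0.28). Creld2 encodes a secreted protein of the endoplasmic reticulum, Atp2a2 the SERCA2 calcium pump of its membrane and Syvn1 the ubiquitin ligase HRD1. Between diets Creld2 (2.24), Atp2a2 (2.63), Syvn1 (1.93) and Gfpt1 (1.67) rose, and Edem3 stood at 1.45 (adjusted p = 0.0736) and Fndc3a at 0.71 (adjusted p = 0.45), all by limma over genes.

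Other genes of protein folding came from 9 lists, chosen with earlier results of these data known, with 117 genes, of which 111 were measured. By limma over genes 17 of the 111 rose and 1 fell, against 1.71% and 1.78% of all genes, and their median standardised difference was 0.72, against 0.04 for all genes. The 10 genes of the BiP system had a median of 2.31. After quantile normalisation 9 of these list genes were higher and 3 lower, and after centring arrays on their medians 20 were higher and 42 lower.

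Of 16 disulfide isomerases and oxidases, which form and reshuffle disulfide bonds, 4 rose and 0 fell, with a median of 0.67. Pdia6 stood at 3.19 (1.81 to 4.52, limma adjusted p = 0.000463), Pdia3 at 2.72 (1.46 to 3.94, limma adjusted p = 0.00188) and Pdia4 at 2.56 (1.33 to 3.75, limma adjusted p = 0.0028). Of 12 lectin chaperones and glycan trimming genes, 2 rose and 0 fell, with a median of 0.60. They were the calcium-binding lectins Calr (4.15, 2.53 to 5.74, limma adjusted p = 3.27e-05) and Canx (1.79, 0.72 to 2.83, limma adjusted p = 0.0272). The probe set of Canx carries a suffix for shared probes, and its call was lost without such probe sets and after median centring (0.68, adjusted p = 0.149). Calr stood at 3.94 after median centring, where 2 genes of this list were higher and 5 lower. After quantile normalisation 0 were higher and 1 lower, and neither Calr nor Canx could be tested there, since all 20 arrays then had the same value.

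Of 13 sensors and factors of the unfolded protein response, 1 rose and 0 fell, with a median of 0.58. It was Xbp1, the factor activated by IRE1 through splicing, at 2.49 (1.28 to 3.67, limma adjusted p = 0.00339), and the other 12 ranged from -0.42 to 1.56. The score does not tell spliced from unspliced Xbp1. The probe sets used for Xbp1 and, in the next list, Syvn1 carry a suffix for shared probes. Both genes kept their calls when such probe sets were left out. Of 13 measured genes of degradation from the endoplasmic reticulum, 4 rose and 0 fell, with a median of 1.40. Among them were Derl2 (1.94, limma adjusted p = 0.017) and Derl3 (1.83, limma adjusted p = 0.024), of the derlin channel family, and Syvn1 (limma adjusted p = 0.0173), and Derl2 stood at -0.45 after quantile normalisation and 0.55 after median centring, without a call in either.

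Among 12 measured genes listed as further partners and paralogs of BiP and GRP94, 4 rose and 1 fell, with a median of 0.82. Ppib, a prolyl isomerase of the endoplasmic reticulum, rose with every HFD mouse above every LFD mouse (3.00, 1.67 to 4.29, limma adjusted p = 0.000899). Creld1 stood at 2.39 (1.20 to 3.55, limma adjusted p = 0.00429), but at 0.23 after quantile normalisation (adjusted p = 0.774). Ficd, which switches BiP off by attaching AMP to it and was named after its value was seen, stood at 2.20 (1.05 to 3.32, limma adjusted p = 0.00787), but its call was lost after quantile normalisation (0.60, adjusted p = 0.395) and after median centring (0.41, adjusted p = 0.385). The 1 that fell was Bag1, which the list includes although it is a nucleotide exchange factor of cytosolic HSP70. It stood at -2.60 (-3.79 to -1.36, limma adjusted p = 0.0026), but at 0.06 after quantile normalisation.

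Of the 7 other J domain proteins of the endoplasmic reticulum, none passed by limma, 2 had an unadjusted p under 0.05 and 1 passed the rank sum test, with a median of -0.35. The smallest p was that of Dnajc1, also called ERdj1 (1.47, 0.46 to 2.45, limma adjusted p = 0.0703). Of 15 measured HSP70, HSP90 and J proteins of the cytosol, 0 passed by limma and 0 by the rank sum test, 5 had an unadjusted p under 0.05, and the median was 0.47. The smallest p there was that of Hsph1, an HSP110 (1.23, 0.25 to 2.18, limma adjusted p = 0.136). Of 9 measured mitochondrial chaperones, the HSP60 gene Hspd1 passed (2.11, 0.98 to 3.20, limma adjusted p = 0.0115, but -0.95 after median centring), with a median of 0.62. Of 14 measured genes of the translocon and of signal peptide handling, all had a higher mean in HFD mice and 1 passed, Sec11a of the signal peptidase (1.98, 0.88 to 3.05, limma adjusted p = 0.015, but -0.60 after quantile normalisation), with a median of 1.19. A difference between the BiP genes and any of these lists was not tested. The share of all genes with an unadjusted p under 0.05 is not given here, so those counts stand without a background.

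**Figure D5:**
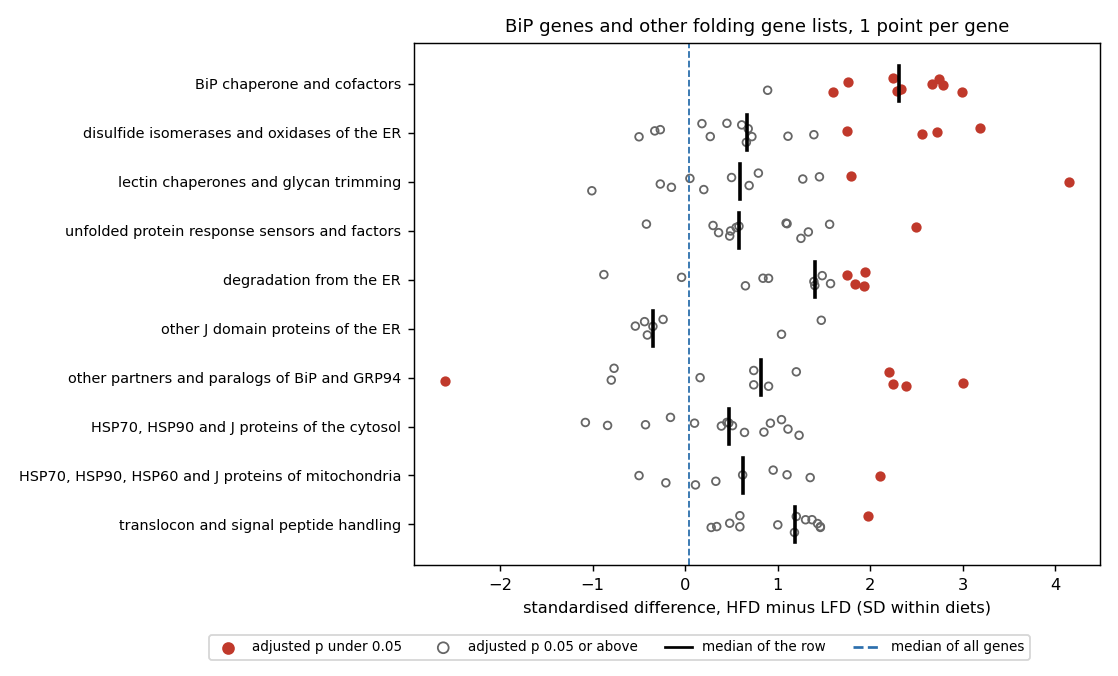
Standardised difference between HFD and LFD mice (x axis, in SD within diets) with 1 point per gene, for the 10 BiP genes (top) and 9 other lists. Filled points passed a limma adjusted p of 0.05 over genes, black bars are medians of a row and the dashed line is the median of all genes (0.04); the BiP genes have a median of 2.31 and the other J domain proteins of the endoplasmic reticulum one of -0.35.

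Markers of other cell types that liver samples could hold were measured beside these genes. Of 7 measured plasma and B cell markers 0 were higher and 1, Tnfrsf17, was lower (-1.72, limma adjusted p = 0.0357). All 7 lay below the median score of all probe sets. Their mean, each marker in SD from its LFD mean, ran from -1.27 over a median of -0.27 to 0.29 in HFD mice, against -0.71, 0.12 and 0.70 in LFD mice. Of 9 measured pancreatic acinar markers 1 passed, Cela1 (1.80, limma adjusted p = 0.0265), which had the highest score of that list (8.319), and 5 lay below the median score of all probe sets. Their mean ran from -0.70 over a median of 0.32 to 0.90 SD in HFD mice, against -0.64, -0.02 and 0.51 SD in LFD mice. Of the markers of Kupffer cells, bile duct cells, stellate cells, sinusoidal endothelial cells, neutrophils and T and NK cells, none passed by limma over genes, and their part in the results was not tested.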

How the data were processed

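Liver RNA of 20 mice, 10 per diet, was measured on Affymetrix arrays after labelling with a 3′ IVT kit, per the labels' protocols. The authors deposited 1 probe set score per array; the summarisation and normalisation of probes are not given in the sources used here. Why the score is compressed, and how it was scaled and centred, are thus unknown, and 0 columns of other samples were present. Probe sets were named from the platform annotation: 34945 have 1 symbol, 932 several (given no name) and 9160 are unnamed here, and 34741 matched the GRCm38.p6 gene table by gene ID, with 0 symbols changed. Control probe sets (64) were left out.

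The scores were used as deposited, without a filter. HFD and LFD mice were set against each other by lmFit and eBayes of limma 3.58.1 (R 4.3.3; two-sided, without covariates, prior degrees of freedom 0.778 over probe sets and 0.724 over genes), with Benjamini-Hochberg adjustment over all 45037 probe sets and, for 1 probe set per gene (the one with the highest mean), over 18193 genes. The threshold was an adjusted p of 0.05. Intervals of standardised differences come from the noncentral t distribution. Each sample is labelled as a separate biological replicate.

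Named were all probe sets of the 10 genes, of each other list up to 3 genes with the smallest p among those past the threshold or else the gene with the smallest p, the 6 genes most like Hspa5 leaving out predicted gene models, and cell type markers past the threshold. The members, lists and tests were chosen with earlier results of these data known. The fit over probe sets was tested on simulated data with 50 changed probe sets. It recovered 0 of the 50 at a shift of 1 SD, 24 at 2 SD, 47 at 3 SD and 50 at 4 SD. A lack of a call at a size near 1 SD is therefore weak evidence of no change. The simulation held 50 changed probe sets, whereas 1043 passed in the data, so its recovered counts need not hold there. A planned look at protein sequences was not run. Alternatives were other scalings, filters, variance models, a rank sum test, a stricter threshold, a block, a spike-in covariate, and leaving out each array. The number of arrays limits the precision.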

Additional observations from a re-analysis of the deposited data

Results flagged for a closer look

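Single mice far from the rest of their diet were looked for on the 21 probe sets, in 42 groups of 10 mice, and chance gives a mouse far from the others in about 1 in 20 groups. Of these groups 1 had such a mouse. For the Hsp90b1 probe set 1438040_a_at, LFD replicate 9 lay below the other LFD mice, with a gap of 0.549 of the range of its diet. Without it the standardised difference was 3.02 and the limma adjusted p 0.00201.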

How the results depend on the processing

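The count of BiP system probe sets higher in HFD mice (12) ranged from 9 to 13 over 12 alternatives and from 10 to 12 over the 20 fits without 1 array. The count of genes (9) ranged from 7 to 9 over 13 alternatives and from 7 to 9 without 1 array. Hspa5, Dnajb11, Dnajc3, Sdf2l1 and Manf passed in every alternative on the probe set used for the gene. Called lower was 1 probe set after centring arrays on their medians (Dnajc10 1426904_s_at, -1.28, limma adjusted p = 0.0171) and 0 in the other settings. All 4 reversals of a called value among the 664 recomputed values of the 21 probe sets came from that centring or from quantile normalisation: besides Dnajc10, Sil1 (-0.60 after centring and -0.91 after quantile normalisation) and Dnajc3 1419162_s_at (-0.24 after quantile normalisation). Of the other values, 25 lost and 5 gained their call, and 630 kept their side of the threshold, some of them with a turned sign that was not called (14 of 21 probe sets were higher after median centring and 17 of 20 after quantile normalisation). Of the other list genes, quantile normalisation turned Derl2 (-0.45), Bag1 (0.06) and Sec11a (-0.60), and median centring turned Vcp (-0.04) and Hspd1 (-0.95). Their counts, 17 higher and 1 lower, were 9 and 3 after quantile normalisation, 42 lower after median centring, 31 higher after centring on standardised values and 9 higher at a threshold of 0.01, and ran from 16 to 21 higher and 1 to 1 lower without 1 array. Median centring moved the median standardised difference of all probe sets from 0.04 to -1.29, and quantile normalisation moved it to -0.41. The cause was not tested.

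Over all probe sets 1043 passed, 501 of them higher and 542 lower (48% higher). The count was 4164 after quantile normalisation (9.13% higher), 38616 after median centring (1.03% higher), 2504 after centring on standardised values, 581 with the poly-A covariate, 272 at a threshold of 0.01 and 768 to 1124 without 1 array. With the replicate number as a block the count was 538, with 9 of the 21 probe sets and 7 of the 10 genes higher, and Hsp90b1 1415889_a_at, Hyou1 1423290_at and Sil1 lost their calls (adjusted p = 0.069, 0.116 and 0.0596). Same-numbered mice did not deviate together: the correlation of their deviations ran from -0.15 to 0.23, over 0.1 in 2 of 10 pairs, and 1 of 10 HFD arrays correlated best with its own number. After quantile normalisation 2676 probe sets had the same value on all 20 arrays and were not tested, among them those of Calr, Canx, Hspd1 and Vcp and the Dnajc3 probe set 1419163_s_at. The number of mice limits the precision.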

Other observations

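ERSE or ERSE-II was found in the RefSeq promoter windows of 49 genes, of which 29 were measured by name here and 4 belong to the BiP system. Of the other 25 measured genes, 6 (24%) rose on HFD and 0 fell by limma over genes, against 1.71% of all genes called higher. The 6 were Calr (4.15), Pdia6 (3.19), Creld2 (2.24), Syvn1 (1.93), Derl3 (1.83) and Canx (1.79), all in the folding and degradation lists described. The other 19 were not called; among them Krtcap2, a subunit of the oligosaccharyltransferase, stood at 1.59 (limma adjusted p = 0.0506), Herpud1 at 0.90 (limma adjusted p = 0.31) and Acnat2 at -1.55 (limma adjusted p = 0.057). The median standardised difference of the 25 was 0.43, against 0.04 for all genes. Over the alternatives, Canx lost its call in 5 of 12, Derl3 in 3 of 13 and Syvn1 in 1 of 13, and Calr, Pdia6 and Creld2 in none. These genes were looked up after the members' promoters had been seen, and the lists had been chosen with earlier results known. The share is a description of these windows, and a link between the element and the rise was not tested.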
